A study of Mus musculus with 32 samples.

Results

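A monocyte graft was compared with libraries that the labels give as its GFP+ colonic progeny, sorted as macrophages from CX3CR1-DTR recipients. The comparison rests on 9 of the 32 libraries of the series, which were chosen by their labels and not by their values: all 3 of the graft and all 6 labelled as colonic progeny of day 14. The labels give strain C57BL/6J for every library. For the graft they give a B6.FVB genotype with the transgene Itgax-DTR/GFP (line 57Lan/J), blood, no toxin and a sort on CD45, CD11b, CD115 and Ly6C, whereas the methods of the study describe CD117- CD11b+ CD115+ Ly6C+ GFPint BM monocytes of Cx3cr1 gfp/+ donors that carry CD45.1. For the day 14 libraries the labels give the genotype Cx3cr1-DTR, colon, "gfp only" and a gate on living CD45+ CD11b+ CD64+ Ly6C- MHCII+ cells. The recipients were BM chimeras made at 7 to 10 weeks of age: wild type mice were irradiated and given CX3CR1-DTR marrow, so the transgene for the diphtheria toxin receptor sits only in cells derived from that marrow. Diphtheria toxin (DTx) was given at 18 ng per g body weight on 2 days before transfer and at 9 ng per g every 2 days from day 1 to day 9 after it. The day of recovery is stated in the sample list of the study and not in the titles, and that list counts 4 repeats where 6 libraries were deposited, so all 6 were used. Values of 4 libraries labelled as colonic progeny of day 12 are set beside these results. They come from chimeras with CD11c-DTR marrow, in which the Itgax promoter drives the receptor, and they were set against the same 3 graft libraries.

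The graft and the day 14 libraries lie in different tables and were sequenced apart. Run and cell state therefore cannot be told apart in any difference given here. The titles of the 3 graft libraries carry different dates, so these are separate preparations. Those of the 6 day 14 libraries carry only a number, and nothing says that they came from separate mice, so their spread may be technical. The day 14 libraries go against their label in part: RNA of the intestinal epithelium was very abundant and genes of leukocytes, among them those of the gate, were low. They are therefore called by their day and not by a cell type, and whether their columns carry the right labels was not tested.

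Classical Ly6C+ monocytes leave the BM under the chemokine receptor CCR2 and circulate briefly. In the wall of the gut they lose Ly6C, display MHC class II and acquire CD64 and complement C1q on the way to macrophages. Macrophages of the colonic lamina propria take up dead cells and bacteria, present antigen and stay quiet under IL-10 and TGF-beta signalling.

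The protocol derives from MARS-seq, in which poly(A) RNA is read near its 3′ end. The unit throughout is normalized reads, that is the counts of a gene per 10000000 reads counted on genes. The graft libraries hold 2447862, 3639328 and 2839917 reads on genes and the day 14 libraries 1223772 to 4218027, so that 1 read equals 2.37 to 8.17 normalized reads. Counting sets this limit and amplification adds to it. A gene was tested with the quasi-likelihood test of edgeR if it held at least 50 normalized reads in at least 3 of the 9 libraries, and it changed at a Benjamini-Hochberg adjusted p under 0.05 and at least 2-fold. Of 10870 genes tested, 3146 (28.9%) were higher and 3919 (36.1%) lower at day 14, 65.0% in all. A share of a gene list has to be read against these. The median log2 fold change of all genes tested was -0.19, and TMM scaling moved it by 0.359, to 0.17. With TMM scaling more genes were higher than lower, 3705 against 3454, and with DESeq2 the counts were 3556 and 3681. Log2 fold changes are those of day 14 relative to the graft, given in parentheses with their SE, and a dash between values marks the lowest and the highest library of a group. From the graft to day 12, 29.2% of 11227 genes were higher and 22.2% lower (51.4% in all).

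One day 14 library stood apart. Library 1, the shallowest, correlated with the other 5 at a Pearson r of 0.794 to 0.846 on the log2 scale across genes, whereas the other 5 correlated among themselves at 0.956 to 0.987 and the graft libraries at 0.979 to 0.988. Of 5801 genes whose day 14 mean reached 200 normalized reads, library 1 lay apart from the other 5 in 21.9% and any other library in at most 1.59%. For named genes whose call changed without this library, its value or the result without it is given beside them. Where it lay apart in other named genes or lists, its value is given there or under the results flagged for a closer look.

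Transcripts poor in G and C were low at day 14. Genes were put in order of GC content and divided into 10 groups of like size. In the group with the lowest GC content (33.1% to 42.8%), the median log2 fold change was -3.09, and 74.9% of the genes were lower and 7.21% higher. In that with the highest (58.5% to 72.8%), the median was 0.95, and 48.9% were higher. From the graft to day 12 the medians of these groups lay between -0.21 and 0.04. A second fit with an offset for GC content in each library, chosen after seeing the data, left medians of -0.91 to 0.28 and called 30.3% of 9840 genes higher and 31.8% lower (62.2% in all). Across genes with a GC value, the day 14 log2 fold change correlated with GC content at a Pearson r of 0.366. Both fits called 5331 genes in the same direction. A further 1088 genes called without offsets lost the call or turned direction with them, and 11 of all genes had the reverse call. The value with offsets is given for named genes whose call or direction differs. How much of any single difference is owed to GC content was not tested.

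**Figure D1:**
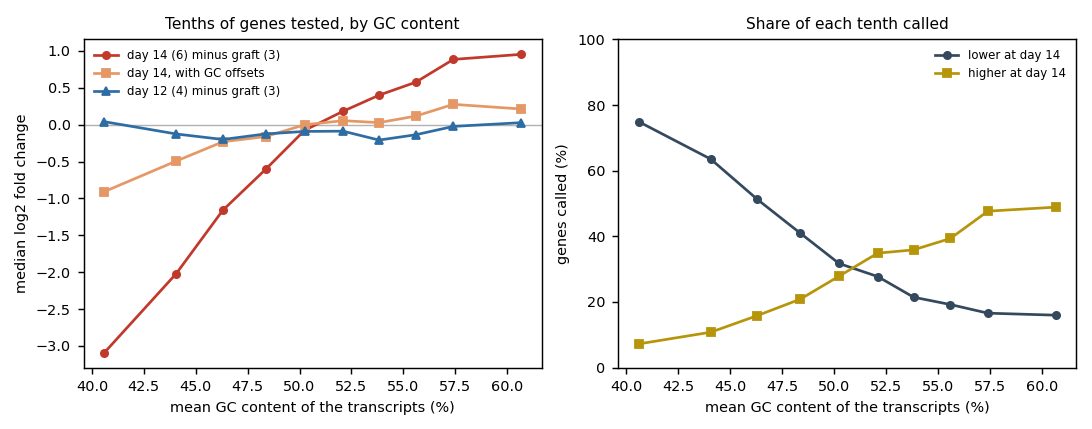
Genes tested were put in order of the GC content of their transcript and divided into 10 groups. The left panel plots the median log2 fold change of each group against its mean GC content (%) for day 14 minus graft, for the same with GC offsets, and for day 12 minus graft, and the right panel plots the share of each group called lower or higher at day 14 (%). The median for day 14 climbs from -3.09 to 0.95, whereas that for day 12 stays between -0.21 and 0.04.

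Of the genes taken as markers of this comparison, Ly6c2 and Id2 fell and Ppard rose. Ly6c2 encodes the surface antigen Ly6C on which the graft was sorted in and the colonic cells sorted out. In mm9 it lies on chromosome 15 at 74938591 to 74942379, minus strand. It stood at 38883, 29409 and 34075 normalized reads in the graft libraries and at 75.9–294 (median 214) at day 14, 166-fold lower by the means. The groups did not overlap, and the log2 fold change was -7.39 ± 0.37 (SE), with an edgeR adjusted p of 6.3e-08. Day 12 libraries held 148–274.

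Ppard encodes PPAR-delta, a nuclear receptor that senses fatty acids, and lies on chromosome 17 at 28369699 to 28438414, plus strand. Its level was 372, 343 and 419 normalized reads in the graft and 2902–4020.4 (median 3425) at day 14. Every day 14 library was above every graft library. The mean was 9.07-fold higher, with a log2 fold change of 3.18 ± 0.19 (edgeR adjusted p = 1.6e-07). At day 12 it reached 665–1245, a log2 fold change of 1.27 against the same graft. Ppard transcripts have a GC content of 59.5%, and with GC offsets the day 14 value was 2.42.

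Id2 encodes an inhibitor of E proteins that keeps these transcription factors off DNA, and lies on chromosome 12 at 25778664 to 25780957, minus strand. The graft held 2394, 2781 and 2014 normalized reads. The 6 day 14 libraries held 16.3, 158, 211, 82.6, 588 and 114, so they were all below the graft and the spread among them was wide, with library 5 at 588. The log2 fold change was -3.56 ± 0.66 (edgeR adjusted p = 5.4e-04). Day 12 libraries held 566–889, a log2 fold change of -1.81. With a GC content of 42.4%, Id2 is among the AT-rich transcripts, and GC offsets brought the day 14 value to -1.77. The group of genes with the lowest GC content, which holds Id2, kept a median of -0.91 with these offsets.

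**Figure D2:**
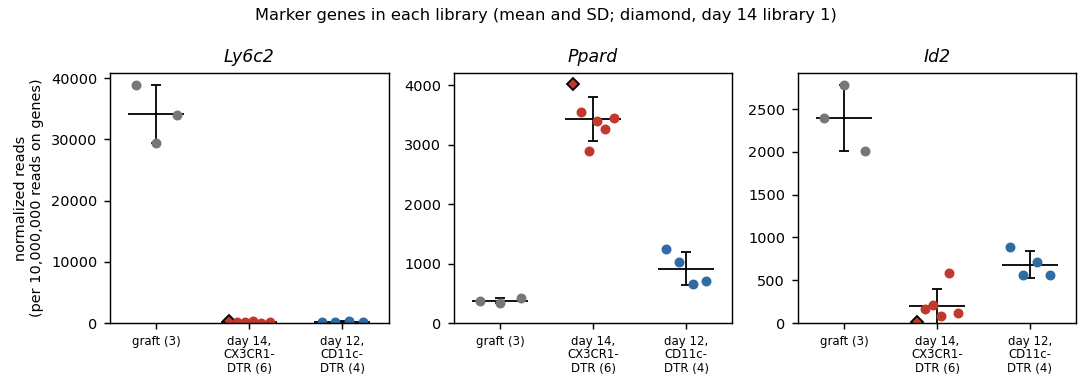
Normalized reads (per 10000000 reads on genes) of Ly6c2, Ppard and Id2 in each library of the graft (3), colon day 14 from CX3CR1-DTR recipients (6) and colon day 12 from CD11c-DTR recipients (4). Points are libraries, bars the mean and SD, and the diamond is day 14 library 1. Ly6c2 falls from 29409 or more to 294 or less, Ppard is highest at day 14, and Id2 is lower in all colonic libraries than in the graft.

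Monocyte genes were lower nearly throughout. All 16 genes of this list were tested, 15 were lower at day 14 and none was higher, against the 36.1% of all genes that were lower. Their median log2 fold change was -7.30 at day 14 and -6.93 at day 12. Ccr2, the receptor that lets monocytes leave the BM, stood at 9510.3, 9243 and 6704 normalized reads in the graft and at 0–57.2 (median 15.6) at day 14 (-9.20 ± 0.74). Fn1, fibronectin, went from 27487–41194 to 75.9–1173 (-5.86 ± 0.79). The 2 tables count Fn1 on different transcripts.

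Further losses on this list were as deep. Hp, which encodes the haemoglobin scavenger haptoglobin, held 17056, 20526 and 19363 normalized reads in the graft and 6.81–65.4 at day 14 (-9.92 ± 0.52). Chil3, a chitinase-like secreted protein of monocytes, fell by 7.68 on the log2 scale, and S100a4, a calcium-binding protein, by 7.22. The chemokine Ccl6 did not pass the test, at 5137–10114 in the graft and 3905–7077 in day 14 libraries 2 to 6, beside 327 in library 1 (-0.91 ± 0.60). Plac8 was lower by the test (edgeR adjusted p = 0.036), with 409 in library 1 and 851–5389.7 in the other 5, against 7625–8799.5 in the graft. Its call was lost with GC offsets (-1.15) and when any single graft library was left out (-1.61, -1.71 and -1.63). The same held under TMM scaling (-1.30) and without day 14 library 4, 5 or 6 (-1.54, -1.66 and -1.47). Thbs1, thrombospondin 1, was lower at day 14 (-2.05 ± 0.37) and higher at day 12 (1.66).

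Genes of the marrow granule list were mostly at or near 0 at day 14. Some, such as Mpo, Elane and Ctsg, are transcribed by marrow progenitors and silenced in mature cells. The list also holds S100a9 and Lyz2, to which this does not apply. Of 13 genes, 12 were tested and all of these were lower. Mpo (myeloperoxidase), Elane (neutrophil elastase) and Ctsg (cathepsin G) gave no read in any day 14 library, against 267–1021, 332–895 and 572–1377 normalized reads in the graft. By the floor of 3 counts over the day 14 group, they were at least 361-fold lower, at least 336-fold lower and at least 513-fold lower. S100a9, a subunit of calprotectin, went from 5256–7764 to 2.37–16.3 (-10.21 ± 0.34). Lyz2, lysozyme of myeloid cells, had the highest mean of any gene over the graft libraries, with 94213, 104937 and 76907, and 654–1546 remained at day 14 (-6.38 ± 0.28), though reads of Lyz2 and its close copy Lyz1 may be split between them. Day 12 libraries held 1755–6718 of Lyz2.

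The genes of the sort were present at day 14 but mostly far below the graft. Ptprc encodes CD45, and it stood at 7574, 8636 and 5564 normalized reads in the graft and at 13.7–34.1 (median 17.1) at day 14, where the 2 tables count different transcripts of it. The log2 fold change was -8.50 ± 0.29, and day 12 libraries, counted on the same transcript as the graft, held 255–1639. Itgam, which encodes CD11b, fell from 4199.6–6732 to 8.17–228 (-5.81 ± 0.54). Fcgr1, which encodes CD64, was present in all 6 day 14 libraries at 109–359.5, yet below the 989–1228 of the graft (-2.39 ± 0.30). Csf1r, the receptor for the growth factor of macrophages, was also present and lower, 983–2819 against 5821–8202, 3.99-fold lower by the means.

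Cx3cr1, the receptor that names the recipients and whose locus carries GFP in the donors, was at 1683, 1412 and 1275 in the graft and 52.2–139 (median 60.6) at day 14 (-4.22 ± 0.32). At day 12 it spread from 225–1036. Itgax, which encodes CD11c, was low throughout, 8.17–33.0 in the graft and 8.17–104 at day 14. Its call as higher (edgeR adjusted p = 0.045) was lost with GC offsets (1.63) and without graft library 1 or 3 (1.35 and 1.59). The call was also lost without day 14 library 2, 4 or 5 (1.52, 1.55 and 1.48), by limma (0.61) and with day 12 libraries added to the fit (1.69). Kit, which encodes CD117, gave no read in the graft, and day 14 libraries held 0–45.0. In all, 2 of 9 sort marker genes tested were higher and 6 lower. The number higher was 3 without library 1 and 0 with GC offsets.

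Genes of the pan-leukocyte list, which holds genes of myeloid cells beside those shared by all leukocytes, were low in the day 14 libraries. All 25 genes of this list were tested and all were lower, with a median log2 fold change of -5.00. Their summed level was 260158–277452 normalized reads in the graft, 24277 in day 14 library 1 and 10085 to 13816 in the other 5, and 9893–27915 at day 12. Coro1a, an actin-binding protein of blood cells, went from 27105–37945 to 250.3–1283 (-5.67 ± 0.42), and Tyrobp, the signalling adaptor of myeloid receptors, from 35803–40084 to 478–2279.8 (-5.12 ± 0.41). Laptm5, a lysosomal protein of haematopoietic cells, kept 815–2116 of 18849–22336 (-4.20 ± 0.29), and Was, the Wiskott-Aldrich protein, 62.7–188 of 2447–3539 (-5.05 ± 0.34). Cyba, a subunit of the phagocyte oxidase that other cells also use, fell to 4564–10500.3 from 12235–16525 (-1.28 ± 0.27), which under TMM scaling was short of 2-fold (-0.91).

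Transcripts of the intestinal epithelium were abundant in every day 14 library and nearly absent from the graft. All 18 genes of the epithelial list were tested and all were higher, against 28.9% of all genes. Their summed level was 57.7–89.9 normalized reads in the graft, 262978–326355 at day 14 and 214310–296985 at day 12. Krt19, a keratin of simple epithelia, stood at 4.09, 11.0 and 10.6 in the graft and 43511–72906 (median 60964) at day 14 (12.63 ± 0.42). Krt8, its partner of the other keratin type, held 30768–57069.5, and Lgals4, galectin 4 of gut epithelium, 28600.1–58702. Epcam, the epithelial adhesion molecule, gave 1 read in the graft and 3138–9422 normalized reads at day 14, 6938-fold higher (exact 95% counting interval 1245 to 274045).

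Goblet cells, which secrete the mucus of the colon, were represented by all 9 of their genes, with a summed level of 3.52–28.6 in the graft, 135454–193631 at day 14 and 88933–143764 at day 12. Muc2, the gel-forming mucin, held 26354–39500.1 normalized reads at day 14 and 0–12.3 in the graft. Agr2, a protein disulfide isomerase needed for mucin, held 22489–51595, and Tff3, trefoil factor 3, 17494–24776. Of colonic enterocyte genes, 7 of 10 were tested and all of these were higher. Car1, carbonic anhydrase 1 of colonocytes, was far lower in library 1, with 319 against 10062–11309 in the other 5. All 16 gut transcription factor genes tested, of 20, were higher too. Cdx1, which specifies intestine, and Hnf4a, a nuclear receptor of gut and liver epithelium, gave no read in the graft, held 5802–6766 and 3897–6725 normalized reads at day 14, and were at least 1836-fold higher and at least 1442-fold higher.

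Genes of other cell types of the gut wall were present at lower levels. All 7 enteroendocrine and tuft cell genes tested, of 13, were higher, with a summed level of 0 in the graft and 3808–14926 at day 14. Pyy, the hormone peptide YY, made up much of it at 3318–8705. The 7 fibroblast and smooth muscle genes and 3 endothelial genes tested were higher as well, with summed levels of 1273–9268 and 571–2844 at day 14 against 98.0–127 and 118–173 in the graft. Col1a1, type I collagen, went from 0 to 434–3128, and Pecam1, the endothelial CD31, from 110.3–169 to 311–2345 (2.59 ± 0.71). All 4 small intestinal enterocyte genes tested, of 10, were higher, and so were all 4 stem cell genes tested, of 6, and 2 of 3 Paneth cell genes tested. Lyz1, also on the Paneth cell list, was lower. The summed level of that list was 29997–46984 in the graft and 163–3291 at day 14.

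None of 10 T and NK cell genes reached the level for testing, and their sum was 50.1–106 at day 14 against 4.09–17.6 in the graft, with no overlap. B and plasma cell genes summed to 299–466 at day 14, 347–384 in the graft and 972–11014 at day 12. Mast cell genes summed to 0–52.7 at day 14 and 0–3.52 in the graft, and enteric neuron and glia genes to 43.9–196 and 0–5.5. Neutrophil genes summed to 400.5–971 at day 14 and 8271–12592 in the graft, dendritic cell genes to 109–212 and 296–767, and erythroid genes to 1805–4956 and 1723–5768. In bulk RNA, fewer cells of a type and less RNA per cell cannot be told apart, and the part of the epithelial RNA in the changes reported for other genes was not tested.

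**Figure D3:**
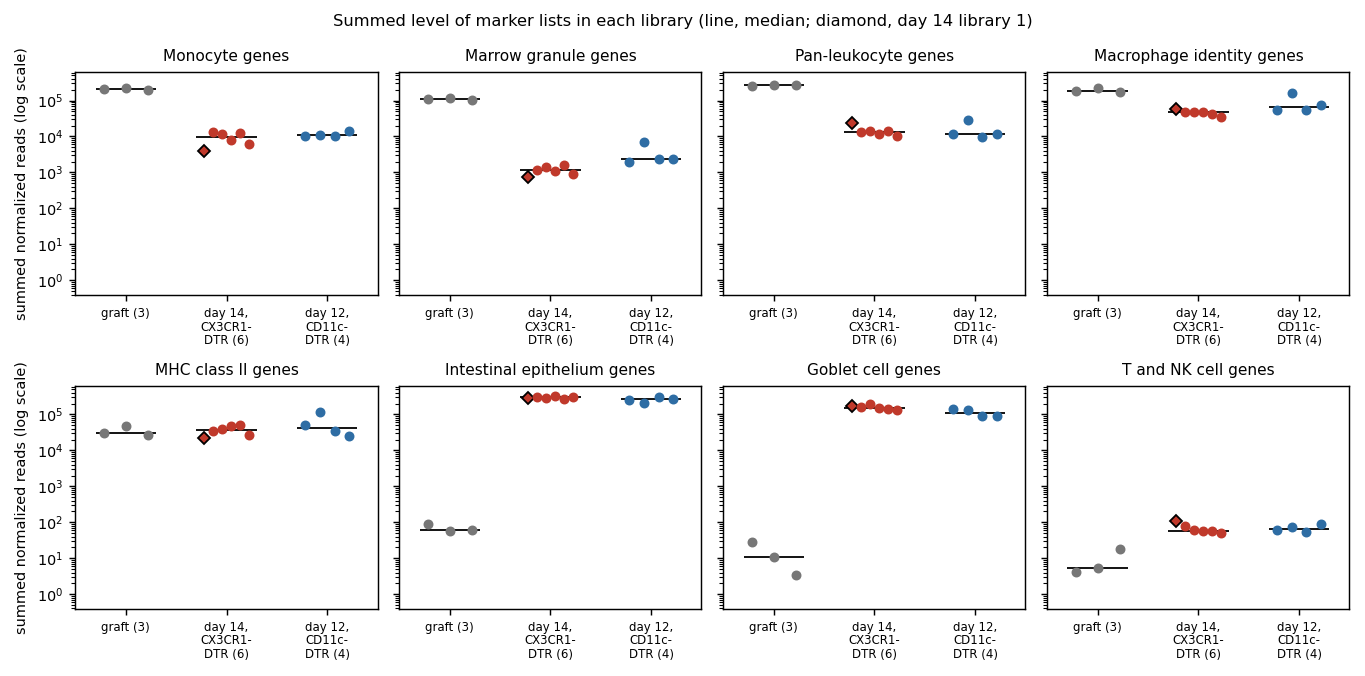
Summed normalized reads of 8 gene lists in each library, on a log scale, for the 3 groups in the order graft (3), day 14 (6), day 12 (4). Points are libraries, lines the median, and the diamond is day 14 library 1. Pan-leukocyte genes sum to 260158 or more in the graft and 24277 or less at day 14, whereas epithelial genes sum to 89.9 or less and 262978 or more.

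Macrophage identity genes moved in both directions. Of 28 macrophage identity genes, 24 were tested, 6 were higher, 12 lower and 6 did not pass (without library 1, 6 higher and 14 lower). Among all genes tested, 28.9% were higher and 36.1% lower. These shares are not far from those of the list. The median log2 fold change of the list was -1.53, and -0.07 at day 12. The 3 chains of complement C1q, which tags dying cells for uptake, were the clearest gain. C1qa stood at 57.2, 52.2 and 21.1 normalized reads in the graft and 4323–8082 (median 5422) at day 14, with no overlap (7.02 ± 0.41). C1qb rose from 17.6–102 to 2995–7698 and C1qc from 16.3–31.7 to 2471–4674. Day 12 levels of C1qa were 3766–13130.1.

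Cd4, which long-lived gut macrophages of mice display, gave 1 read in the graft and 24.5–183 normalized reads at day 14, 114-fold higher (exact 95% counting interval 20.2 to 4521). T cells display it too, and their part in it was not tested: the sum of T and NK cell genes, given before, was also above the graft in every day 14 library. Apoe, the lipid carrier that macrophages secrete, was 7032–16088 in the graft and 14354–23836 at day 14, which fell short of 2-fold (0.93 ± 0.29, edgeR adjusted p = 0.014). Apoe passed under TMM scaling (1.28), without graft library 2 (1.39) and without day 14 library 6 (1.01), and by DESeq2 (1.17) and limma (1.00). At day 12 it held 26654–93766.

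Other genes by which macrophages are recognised were lower. Adgre1, which encodes F4/80, fell from 1458, 1833 and 817 to 4.55–20.4 (-6.87 ± 0.41), beside 191–909 at day 12. Cd68, a lysosomal glycoprotein of phagocytes, went from 2989.5–4091 to 659.9–2035, with library 1 the highest (-1.86 ± 0.33). Ctss, cathepsin S, held 147 in library 1 and 1696–2908 in the other 5, against 17557–27483 in the graft (-3.49 ± 0.59). Spi1, the lineage factor PU.1, fell from 3828–4845 to 146–695 (-3.58 ± 0.37).

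Maf, a transcription factor that sustains the macrophage state, stood at 63.4–121 in the graft, 0–24.5 at day 14 (-3.61 ± 0.74) and 128–497 at day 12 (1.67). Cd14, the co-receptor for lipopolysaccharide, held 49.0 in library 1 and 652–1079 in the other 5, beside 511–711 in the graft, and did not pass (0.14 ± 0.58). Mertk and Timd4, receptors for dead cells, were too low to test, at 0–35.1 and 0 at day 14.

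**Figure D4:**
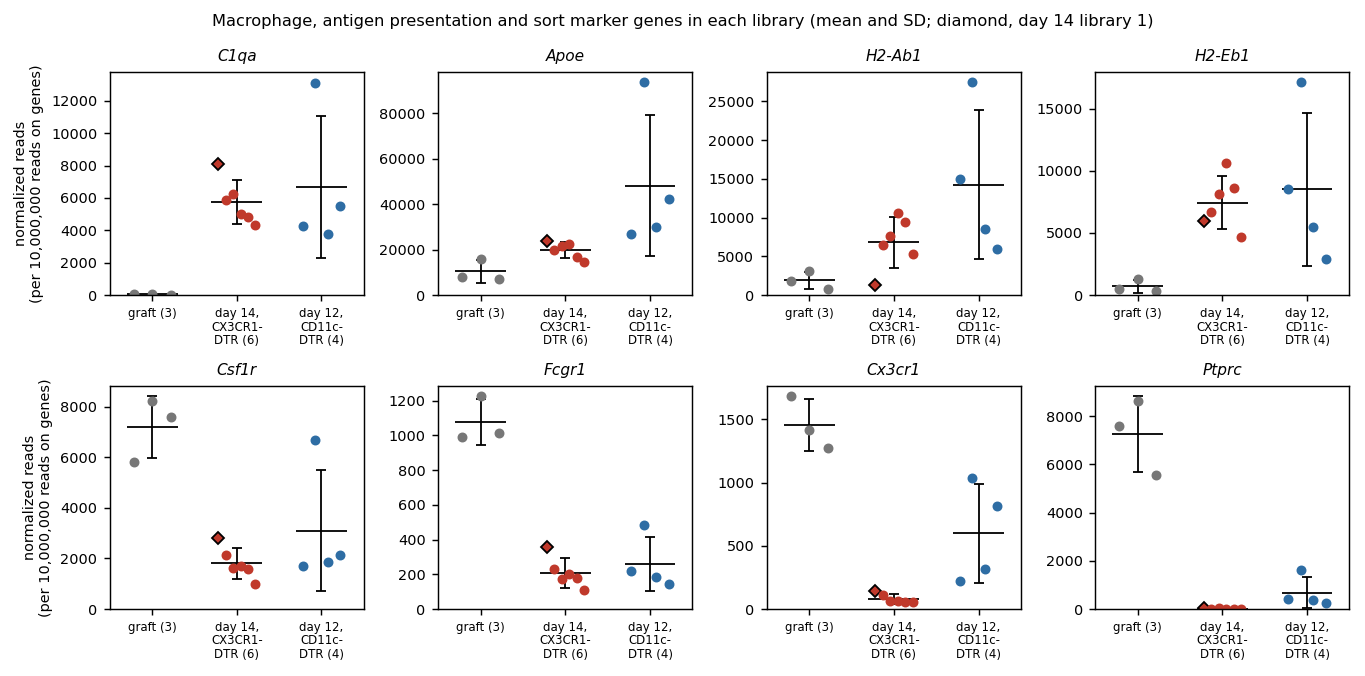
Normalized reads (per 10000000 reads on genes) of 8 macrophage, antigen presentation and sort marker genes in every library, with the graft (3) at left, then day 14 (6) and day 12 (4). Points are libraries, bars the mean and SD, and the diamond is day 14 library 1. C1qa is at 57.2 or less in the graft and 4323 or more at day 14, whereas Csf1r, Fcgr1, Cx3cr1 and Ptprc are lower at day 14 than in the graft. The 2 tables count different transcripts of Ptprc.

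Of 11 MHC class II genes, 8 were tested. Both beta chains and the chaperone, 3 genes, were higher, beside 28.9% of all genes. A subunit of the peptide editor, the protease Ctss and the transactivator, 3 genes, were lower, beside 36.1% of all genes. H2-Eb1, a beta chain, went from 490.2, 1280.5 and 306 normalized reads to 4637–10664 (median 7405) (3.42 ± 0.49). Cd74, the invariant chain that escorts class II, was 1078–3273 in the graft and 4897–14481 at day 14 (2.10 ± 0.44). H2-Ab1, the other beta chain, was higher (edgeR adjusted p = 0.018), with 1324 in library 1 within the graft's 796–3058 and 5334–10559 in the other 5, and lost the call with GC offsets (1.28) and without graft library 1 or 3 (1.82 and 1.48).

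The call of H2-Aa, the alpha chain, varied with the fit. H2-Aa held 801 in library 1, 9015–15583 in the other 5 and 1250.0–5429.6 in the graft. The log2 fold change was 1.82 ± 0.76 with an edgeR adjusted p of 0.051 over all 6, and 2.06 with 6.5e-04 without library 1. It was also called without graft library 2 (2.64). With all libraries kept, it was called under TMM scaling (2.16) and by DESeq2 (2.00). The same held with no filter beyond 1 read (1.82) and with day 12 libraries added to the fit (1.82). H2-DMa, part of the peptide editor, fell from 3742–4537 to 724–1422 (-1.88 ± 0.20). Ciita, the master regulator of class II transcription, fell from 110.3–294 to 49.0–123 (-1.38 ± 0.37), short of 2-fold without graft library 2 (-0.92) and by limma (-0.93). At day 12 Ciita was not called (0.59).

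Among lipid-sensing nuclear receptors and their partners, 6 of 9 tested, of 11 on the list, were higher and none was lower, counts that held without library 1 and with GC offsets. The same libraries held epithelial genes at a sum of 262978–326355. PPARs answer to fatty acids, LXR to oxysterols and the bile acid receptor FXR to bile acids, all as partners of RXR. Nr1h3, which encodes LXR-alpha, rose from 4.09, 24.7 and 21.1 to 509.5–735 (median 576) (5.07 ± 0.41). Nr1h4, which encodes FXR, gave no read in the graft and 237–1019 at day 14, at least 234-fold higher. Pparg, the receptor of alternatively activated and alveolar macrophages and of colonic epithelium, went from 28.2–63.2 to 106 in library 1 and 569–1045 in the other 5 (4.05 ± 0.68).

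Ppara, the receptor of fatty acid oxidation, gave no read in the graft and 40.9–156 at day 14, at least 29.8-fold higher. The 2 tables count Pparg and Ppara on different transcripts. Ppargc1b, a coactivator of mitochondrial genes, rose from 57.7–73.5 to 416–678 (3.12 ± 0.26). Rxra, the common partner, was 559.7–819 and 903–1193, short of 2-fold (0.59 ± 0.18). At day 12 the same receptors stood at log2 fold changes of 4.20 for Nr1h3 and 4.19 for Pparg, beside 1.27 for Ppard.

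Targets of these receptors did not move as a block. Of 16 genes, 11 were tested, 7 were higher and 3 lower, beside 28.9% and 36.1% of all genes. Ech1 and Acadvl, enzymes of fatty acid oxidation, rose from 1250.1–1451 to 4609–8212 (2.20 ± 0.25) and from 458–648 to 2289–3365 (2.43 ± 0.22). Lpcat3, a phospholipid enzyme and LXR target, rose to 1805–2817 from 517–619.7 (1.92 ± 0.20).

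The genes that fell included exporters and importers of lipid. Abcg1, the cholesterol exporter of macrophages and a target of LXR, fell from 723, 701 and 711 to 27.3–80.6 (-3.64 ± 0.30). Cpt1a, which brings fatty acids into mitochondria, fell from 1601–2379.6 to 95.4–646 (-2.69 ± 0.41), with library 2 above the other 5. Abca1, the other exporter, was too low to test, at most 16.3 normalized reads at day 14.

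Of 6 genes of Id proteins and the E proteins they bind tested, 2 were higher and 3 lower, beside 28.9% and 36.1% of all genes. Id1 went from 870.1, 888 and 768 to 2844–8196 (median 7005) (2.94 ± 0.33) and Id3 from 69.4, 24.7 and 98.6 to 2974–4108 (median 3071) (5.69 ± 0.41), both with no overlap, while Id2 fell as given before. Both Id1 and Id3 are induced by BMP and TGF-beta signals through SMADs in many cells. Of the E proteins, Tcf12 fell from 208–257 to 4.55–17.6 (-4.21 ± 0.33) and stood at 176–285 at day 12. Tcf4 fell from 379.9–420.4 to 51.3–158 (-1.99 ± 0.32), but its transcripts hold 41.1% GC and with GC offsets the value was 0.13.

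Of 13 TGF-beta and SMAD genes tested of 16, 7 were lower and 2 higher, beside 36.1% and 28.9% of all genes. At day 12, 1 was lower and 4 were higher, beside 22.2% and 29.2% of all genes. Without library 1 the day 14 counts were 7 and 5, with GC offsets 6 and 4, and with TMM scaling 7 and 5. Tgfb1, the ligand, fell from 1528–1851 to 239–695 (-2.13 ± 0.30). The receptor chain Tgfbr2 fell from 310.5, 357 and 211 to 39.9–57.2 (-2.61 ± 0.26) and was 567–661 at day 12 (1.07). Tgfbr1, the partner chain, was lower by the test (-2.07 ± 0.64), and with GC offsets the value was -0.01.

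Single SMAD genes moved both ways. Smad4, the shared mediator, fell from 986–1141 to 49.0–332 (-2.46 ± 0.40), beside 911–1327 at day 12. Smad3, which carries the TGF-beta signal, rose from 109–168 to 155 in library 1 and 329.5–426 in the other 5 (1.28 ± 0.32), just short of 2-fold by limma (0.996). Smad6, an inhibitor, rose from 45.8–57.2 to 187–307 (2.24 ± 0.27). Smad7, the inhibitor of the TGF-beta receptor, held 57.2 in library 1, 238–505 in the other 5 and 113–172 in the graft. Over all 6 it missed the test (1.14 ± 0.52, edgeR adjusted p = 0.067), and it was called without library 1 (1.35). With all 6 kept it was also called under TMM scaling (1.49), by DESeq2 (1.32) and with day 12 libraries added to the fit (1.15). At day 12 Smad7 was 687–818.

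The IL-10 axis, which restrains colonic macrophages, was lower at the ligand-binding receptor chain and at both kinases of the receptor. Of 10 genes tested of 11, 1 was higher and 5 lower, beside 28.9% and 36.1% of all genes. Il10ra, the ligand-binding chain, stood at 1348, 2011 and 1873 in the graft and 165–286 (median 228) at day 14 (-2.97 ± 0.23). Il10rb, the shared chain, was 567–868 and, but for 73.5 in library 1, 597–897, and did not pass (-0.28 ± 0.50). Tyk2 and Jak1, the kinases on the chains, fell by 2.08 and 1.57 on the log2 scale, and Jak1 lost its call with GC offsets (-0.97) and without graft library 2 (-1.45). For both kinases library 1 was the lowest, at 32.7 and 49.0.

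Downstream, Stat3 was 2186–2454 in the graft and 1662–3579 at day 14, with no change called (0.03 ± 0.22). Socs3, a feedback inhibitor that STAT3 induces, rose from 159, 148 and 77.5 to 564–1972 (median 1045) (3.09 ± 0.45). Il10 itself gave no read in the graft and at most 20.4 normalized reads at day 14. At day 12 Il10ra was 91.2–433 (-2.87) and Il10 at most 137.

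**Figure D5:**
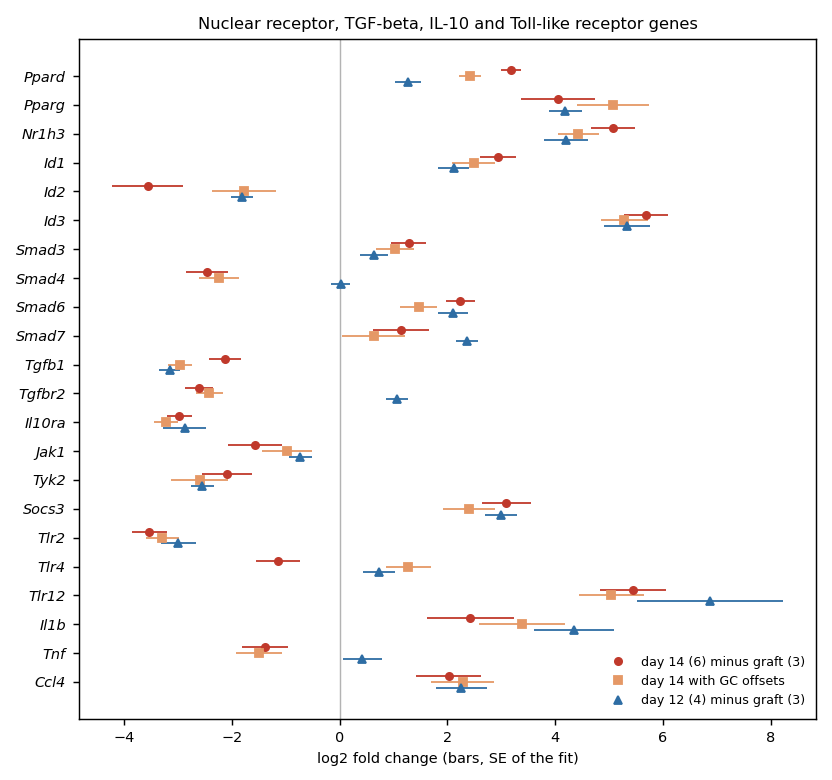
Log2 fold changes of 22 genes of the nuclear receptor, Id, TGF-beta, IL-10 and Toll-like receptor groups for day 14 minus graft (6 against 3 libraries), the same with GC offsets, and day 12 minus graft (4 against 3). Bars are SE of the fit and the line marks no change. Tlr4 is the only gene drawn whose sign turns with GC offsets, from -1.14 to 1.27.

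Toll-like receptors and their adaptors were mostly lower, 9 of 13 genes tested of 18, with 2 higher (8 and 1 without library 1). Tlr2, which binds bacterial lipopeptides, fell from 1275, 1030.4 and 1070.5 to 32.7–132 (-3.53 ± 0.32). Tlr13, which binds bacterial ribosomal RNA, fell from 1773–2078 to 13.7–98.1 (-5.33 ± 0.41). Tlr8 gave no read at day 14 against 257–681 in the graft, at least 219.5-fold lower. Myd88, the adaptor of most of these receptors, fell from 1641–2382 to 489.9–642 (-1.86 ± 0.17).

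Tlr12, a receptor for profilin of protozoa, went the other way. It gave 3 reads in the graft and 91.0–212 normalized reads at day 14, 49.9-fold higher (exact 95% counting interval 16.9 to 244), and 76.2–1306 at day 12. Tlr4, the receptor for lipopolysaccharide, was 81.0–148 in the graft and 8.17–74.9 at day 14. Its transcripts hold 39.4% GC, and the log2 fold change of -1.14 ± 0.41 (edgeR adjusted p = 0.028) became 1.27 with GC offsets. It was not called without graft library 1 or 2 (-1.10 and -0.95), without day 14 library 1 or 2 (-0.98 and -1.12) or under TMM scaling (-0.79). Nor was it called by DESeq2 (-0.94) or limma (-0.74).

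Inflammatory effectors showed no common direction, with 3 higher and 3 lower of 10 tested of 16, beside 28.9% and 36.1% of all genes. Il1b, the cytokine interleukin 1-beta, was 229, 90.7 and 130.3 in the graft, 24.5 in day 14 library 1 and 678–1369 in the other 5 (2.43 ± 0.81, edgeR adjusted p = 0.018), and 897–6771 at day 12. The call was lost without graft library 2 or 3 (2.16 and 2.34) and by limma (1.73). Tnf fell from 206–264 to 36.4–211 (-1.39 ± 0.43), with library 3 above the rest, and was not called under TMM scaling (-1.02). Ccl4, a chemokine for monocytes and T cells, rose from 179.7, 41.2 and 144 to 188–915, and its lowest day 14 library lay just above the highest graft library (2.02 ± 0.60). Nos2, which makes nitric oxide, gave no read in the graft and 26.4–146 at day 14, at least 24.3-fold higher. Lcn2, an iron-withholding protein of granules and inflamed epithelium, fell from 1021–1352 to 7.11–98.1 (-5.56 ± 0.63).

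Of 18 chemokine and homing receptor genes, 10 were tested and all of these were lower, with a median log2 fold change of -6.70. Selplg, the ligand of P-selectin, fell from 10452–12578 to 161–547 (-5.25 ± 0.33). Itga4 and Itgb7, the chains of the integrin that binds gut endothelium, fell from 1461–2591 to 5.7–43.9 (-6.66 ± 0.45) and from 6022–7588 to 35.6–139 (-6.74 ± 0.35). Cxcr4, which retains cells in the BM, was lower at 184–704 against 849–1226 (-1.27 ± 0.37) and not called with GC offsets (-0.23) or under TMM scaling (-0.91).

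Fc receptors for IgG were lower in 4 of 6 genes tested of 8. Fcgr3 went from 5123–7103 to 287–647 (-3.69 ± 0.27). Fcgr2b, the inhibitory receptor, gave 2 reads at day 14 against 894–1709 normalized reads in the graft, 997-fold lower (exact 95% counting interval 275 to 8241), while day 12 held 113–322. Fcgrt, the recycling receptor that epithelium also expresses, was higher (1.15 ± 0.31), by 0.97 and so short of 2-fold without library 1, and by 0.69 with GC offsets.

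Of 23 transcription factor genes of myeloid cells tested of 24, 14 were lower and 3 higher. Irf8, which guides monocyte development, fell from 6792–7079.6 to 1324–1809.7 (-2.15 ± 0.14). Irf5, a factor of inflammatory macrophages, fell from 4751–5461 to 24.5–129 (-5.74 ± 0.32), counted on different transcripts in the 2 tables. Cebpb fell from 8043–10507 to 1242–2648 (-2.43 ± 0.24), and Bach1, a repressor bound by haem, from 658–775 to 25.6–65.4 (-4.16 ± 0.26).

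Irf1, an interferon-induced factor, rose from 997–1190.2 to 1878–4159 (1.31 ± 0.26). Nr4a1, an orphan receptor of Ly6C- monocytes, was higher (1.20 ± 0.35) and not called with GC offsets (0.60) or without graft library 2 (0.97). Klf4 was 5937–8289 in the graft, 3032–4599 at day 14 and 11073–14428 at day 12, a log2 fold change of -0.91 ± 0.18 at day 14 that fell short of 2-fold, though not without graft library 3 (-1.01) or with GC offsets (-1.40).

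Immediate early genes, which cells also induce during tissue digestion and sorting, moved both ways at day 14. Of 13 Egr and AP-1 genes tested of 15, 7 were higher and 4 lower, beside 28.9% and 36.1% of all genes. At day 12, 9 were higher and none lower, beside 29.2% and 22.2% of all genes. Egr1 rose from 36.8, 16.5 and 28.2 to 1847–7498 (median 4961) (7.52 ± 0.56). Fosb and Jund rose from 52.2–686 to 3284–9136 (3.95 ± 0.73) and from 327–756 to 1977–7024 (3.19 ± 0.43). Fos fell from 8249–16651 to 1608–3154 (-2.37 ± 0.26), while day 12 held 8386–19278. Zfp36, which destabilises cytokine mRNA, fell from 4732–7872 to 150.2–1190.4 (-3.76 ± 0.52), with library 2 above the other 5.

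Interferon-stimulated genes were lower in 12 of 15 tested of 16 and higher in none. Mx1, an antiviral GTPase, fell from 666–989 to 0–16.3 (-6.78 ± 0.41). Phagocyte oxidase and lysosome genes were lower in 9 of 19 and higher in none, beside 36.1% and 28.9% of all genes. With GC offsets 10 were lower and 3 higher, beside 31.8% and 30.3% of all genes. Cybb, the core of the phagocyte oxidase, fell from 21382, 21573 and 13363 to 105–268 (-6.74 ± 0.34). Grn, progranulin, fell from 9273–11993 to 2981–3707 (-1.65 ± 0.15). Lamp1, of the lysosomal membrane, held 1299 in library 1, 7715–10050.2 in the other 5 and 13743–15604 in the graft, and did not pass (-0.96 ± 0.46).

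Cell cycle genes were lower in 19 of 27 and higher in 2 (23 and 1 with GC offsets). Mki67, the proliferation antigen Ki-67, fell from 4134, 3182 and 4483 to 31.3–81.7 (median 62.7) (-6.14 ± 0.28), and stood at 486–1115 at day 12. Pcna, the sliding clamp of replication, fell from 2641–4240.4 to 0–30.8 (-7.75 ± 0.50), beside 1084–1445 at day 12. Top2a, topoisomerase II, was 614–1245 against 4707–7046 (-2.88 ± 0.23). Ccnd1, cyclin D1 of cells entering the cycle, rose from 32.7, 46.7 and 17.6 to 1154–1961 (5.51 ± 0.36). Cdk1 was 24.5 in library 1 and 474–1121 in the other 5, against 1105–1565, and did not pass (-1.24 ± 0.61). It was called lower without library 5 (-1.55) and with day 12 libraries added to the fit (-1.24).

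Genes of oxidative phosphorylation were higher in 40 of 82 tested of 88 and lower in 9, with a summed level of 187068–215605 in the graft and 516087–601193 at day 14, in libraries that also held the epithelial RNA given before. Cox6a1, of complex IV, rose from 6858–7916 to 25372–41683 (2.19 ± 0.22), and Uqcr11, of complex III, from 1841–2518 to 12857–18353 (2.83 ± 0.21). Ribosomal protein genes were lower in 44 of 79 tested and higher in 7 at day 14 (43 and 15 with TMM scaling), and lower in none and higher in 9 at day 12. Their summed levels overlapped, at 613308–720042 in the graft and 561129–764492 at day 14. Rplp1 and Rpl41 rose, by 1.63 ± 0.21 and 1.20 ± 0.28. Histone genes were lower in 24 and higher in 10 of 60 (24 and 16 with TMM scaling), beside 36.1% lower and 28.9% higher of all genes tested. Hist1h2ao fell from 16904–29704 to 302–2371 (-4.85 ± 0.59), with reads that its near-identical copies may share. Hist1h2bc, a histone with a polyadenylated transcript, rose from 382–617 to 409–5953 (2.87 ± 0.65). The sex-linked genes summed to 602–822 in the graft, 368 in day 14 library 1, 14.2 to 129 in the other 5 and 852–1649 at day 12. Their transcripts have a mean GC content of 38.8%, and GC offsets moved their median log2 fold change from -4.43 to -2.62. The sex of the animals was not tested.

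Among genes counted on the same transcript in both tables, with a mean of 200 normalized reads or more in either group and no overlap between the groups (30.6% of all genes tested did not overlap and were higher, 40.6% lower), the 12 genes with the highest fitted log2 fold change were Oit1, Ckmt1, Tspan1, Spink4, Reg4, Mptx1, Clca1, Cldn3, Gpa33, S100a16, Sema4g and Dmbt1. They include goblet cell products (Spink4, Reg4, Clca1), a tight junction protein of epithelium (Cldn3), a surface antigen of colon epithelium (Gpa33), a mitochondrial creatine kinase (Ckmt1) and a scavenger protein of mucosal surfaces (Dmbt1). Of these, 10 gave no read in the graft, where the fitted value rests on the prior count of the fit, so their order is not one of measured size. Oit1 held 35213–52926 (median 47609) normalized reads at day 14, at least 13475-fold higher, and Ckmt1 25505–41123 (median 33588), at least 10036-fold higher. Mptx1, a pentraxin of the gut, gave 1 read in the graft and 5998 normalized reads in library 1 against 29066–88824 in the other 5. At day 12 Oit1 held 19204–30245 and Ckmt1 17811–28680.

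By the same rule the 12 genes with the lowest fitted log2 fold change were Gapt, Ifi205, Ctsg, Galnt9, Mmp8, Emb, Mpo, Elane, Lilra6, Chil1, Rnase6 and Tm6sf1. They hold granule proteins (Ctsg, Mpo, Elane), a collagenase of neutrophils (Mmp8), a ribonuclease of monocytes (Rnase6), an adaptor of haematopoietic cells (Gapt) and a leukocyte receptor (Lilra6). Of these, 7 gave no read at day 14, and the same holds for their order. Gapt held 1609.6, 1909.7 and 1095 in the graft, at least 764-fold lower at day 14, and Ifi205, an interferon-inducible gene, 1049.9, 1374 and 901, at least 550.3-fold lower. Emb, embigin, which accompanies lactate transporters, fell from 12064, 11711 and 7669 to 0–16.3 (-10.61 ± 0.45).

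By read count, the genes at the top of the graft were Lyz2, Actb, S100a4, Vim, Psap, Crip1, Tmsb4x, Lgals3, Rpl4 and Lyz1. Those at the top of the day 14 libraries were Rplp1, Krt19, Wdr89, Rplp2-ps1, Mptx1, Rpl41, S100a6, Lgals4, Actb and Oit1, where Wdr89 and Rplp2-ps1 may share reads. Vim, the intermediate filament of mesenchymal and blood cells, fell from 43040–47919 to 172–1647 (-6.51 ± 0.69), and Psap, a lysosomal activator, from 36673–52089.6 to 1809–2819 (-4.43 ± 0.20). Lgals3, galectin 3, was 40684–42461 in the graft and 33859–75488 at day 14, with no change called (0.13 ± 0.27). Actb, cytoplasmic actin, was 85436–87019 in the graft, 94732 in library 1 and 32858–39551 in the other 5. With all libraries kept, its fall was short of 2-fold by edgeR (-0.93 ± 0.34) and was called by limma (-1.05). Without library 1, edgeR called it lower too (-1.28).

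The study plotted 10 genes for this comparison. They were chosen on these samples, so their counts are no independent evidence of direction: 4 were higher (Ppard, Id1, Il1b and H2-Ab1), 5 lower (Ly6c2, Id2, Fcgr1, Il10ra and Was) and 1, Smad7, did not pass. Smad7 was called higher in some other fits, as given before.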

How the data were processed

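Bulk RNA of sorted cells was sequenced by a protocol derived from MARS-seq. The authors demultiplexed with bcl2fastq, aligned with HISAT 0.1.6 to mm9 and counted reads on exons with HOMER on the sense strand, with 1 transcript kept per gene. The deposited values are raw counts per gene. The version of HOMER was not given in the sources used here. Of 24148 genes in both tables, 22205 (92.0%) are counted on the same transcript. 52 columns of the second table that the labels do not name were not used.

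Counts were scaled to 10000000 reads on genes without TMM factors. Genes that reached 50 normalized reads in 3 or more of the 9 libraries were tested with the quasi-likelihood test of edgeR 4.0.16 (R 4.3.3), which borrows spread across genes, where the study used Student's test. A change required a Benjamini-Hochberg adjusted p under 0.05 and at least 2-fold. SE is the log2 fold change divided by the root of F. The fit of day 12 was made apart on the graft and 4 libraries. Folds against a group without a read use a floor of 3 counts over the group, and ratios with 1 to 3 reads carry an exact interval, both for counting error only. GC content came from the longest coding transcript of the GENCODE annotation of mm9, found for 90.5% of genes, and GC offsets were loess fits with a span of 0.3 per library. The script was tested on simulated data. TMM, DESeq2 1.42.0, limma 3.58.1 on log2 of normalized reads plus 50, other filters, the addition of day 12 libraries and leaving out each library were tried. For day 12 a fit with the transfer as a block was added.

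Members and gene lists were chosen with earlier results of these data known. Per list up to 6 members were named by level, by definition of the sort or by going against the list, with the 12 highest and lowest fitted log2 fold changes under the filters given, the 10 genes with the most reads per group, and the 10 the study plotted. Abca1, Il10, Kit, Mertk and Timd4 were named after their values were seen. Some members of the lists are counted but not reported here by name.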

Additional observations from a re-analysis of the deposited data

Results flagged for a closer look

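Of 129 named genes, 25 had a day 14 library that lay apart from the other 5 by Dixon's test, and in 17 of these it was library 1. Of all 5801 genes tested with a day 14 mean of at least 200 normalized reads, 24.4% had such a library. In 21.9% it was library 1. The named genes were examined from a mean of 50. Chance flags about 1 in 20 such groups, and the test assumes nothing about why a library lies apart. Library 1 was the highest for Laptm5 at 2116 normalized reads (the other 5 at 815 to 1202), Cyba at 10500.3 (4564 to 5761), Cd68 at 2035 (659.9 to 1006), Tgfb1 at 695 (239 to 389), Itgb7 at 139 (35.6 to 68.1) and Fosb at 9136 (3284 to 5044). It was also the highest for the epithelial genes Hnf4a at 6725 (3897 to 4924) and Cldn3 at 26868 (8931 to 12590), for Pecam1 at 2345 (311 to 872), Actb at 94732 (32858 to 39551) and Lgals3 at 75488 (33859 to 49015). It was the lowest for Smad3 at 155 (330 to 426), Il10rb at 73.5 (597 to 897), Jak1 at 49.0 (550 to 718), Tyk2 at 32.7 (272 to 416), Lamp1 at 1299 (7715 to 10050.2) and Car1 at 319 (10062 to 11309).

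Other libraries stood out in fewer genes. Library 2 was the highest for Ciita at 123 normalized reads (the other 5 at 49.0 to 68.8), Cpt1a at 646 (95.4 to 286), Zfp36 at 1190.4 (150.2 to 367) and Vim at 1647 (172 to 430.1). Library 5 was the highest for Id2 at 588 (16.3 to 211), Pyy at 8705 (3318 to 4946) and Hist1h2ao at 2371 (302 to 741), and library 3 for Tnf at 211 (36.4 to 92.2).

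Of 39 summed lists, 6 had such a library. Library 1 was the highest for pan-leukocyte genes at 24277 (the other 5 at 10085 to 13816), endothelium genes at 2844 (571 to 1291) and sex-linked genes at 368 (14.2 to 129), and the lowest for colonic enterocyte genes at 8368 (29168 to 37260) and the genes the study plotted at 9373 (18063 to 22972). Library 5 was the highest for enteroendocrine and tuft cell genes at 14926 (3808 to 7589). What sets these libraries apart was not tested.

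For 6 named genes every library of day 14 lay on one side of the graft and every library of day 12 on the other. Of all genes tested, 30.6% were higher and 40.6% lower at day 14 without overlap with the graft. The share of all genes that lay on opposite sides at day 14 and day 12 was not counted, so the 6 genes cannot be set against it. The difference was not tested, and both comparisons share the graft libraries. The log2 fold changes at day 14 and day 12 were -2.05 and 1.66 for Thbs1, -3.61 and 1.67 for Maf, -1.99 and 0.80 for Tcf4, -2.61 and 1.07 for Tgfbr2, -1.14 and 0.73 for Tlr4, and -0.91 and 0.93 for Klf4. With GC offsets the day 14 values of Tcf4 and Tlr4 were 0.13 and 1.27, of the same sign as at day 12.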

How the results depend on the processing

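The number of genes changed lay between 4992 (filter at 200 normalized reads) and 9130 (no filter beyond 1 read) under 20 alternatives, against 7065, and between 6731 and 7185 when each library was left out. Of 2818 log2 fold changes of 158 named genes under alternatives, 2725 kept direction and side of the threshold, 49 lost and 24 gained the call, and 20 turned sign; 131 genes kept both under all that were run. Of 702 list counts, 681 stayed within 1.5 times. The other 21 moved further. One was that of Toll-like receptor genes, with 6 changed under the filter at 200 normalized reads, which tests fewer genes. The rest lay among lists given mainly by their summed level. These are the B and plasma cell, dendritic cell, neutrophil, erythroid, Paneth cell, small intestinal enterocyte and stem cell lists. Also among them are the enteroendocrine and tuft cell, fibroblast and smooth muscle, endothelium and sex-linked lists. Counts called in some of these lists therefore depend on the processing.

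With GC offsets the sign turned for Ccl6 (0.35), Cd14 (-0.11), Tcf4 (0.13), Stat3 (-0.16), Tlr4 (1.27) and Lgals3 (-0.39). With GC offsets and without day 14 library 1 it turned for Ccl6 (0.59), Tcf4 (0.12), Tgfbr1 (0.20), Il10rb (0.22), Stat3 (-0.27), Tlr4 (1.39) and Lgals3 (-0.51). By limma it turned for Cd14 (-0.17) and Stat3 (-0.0052), and under TMM scaling for Il10rb (0.078). It also turned for Cd14 without day 14 library 5 (-0.055, up to 0.38 without library 1), for Stat3 without graft library 1 (-0.015) or day 14 library 1 (-0.12), and for Lgals3 without day 14 library 1 (-0.079). The cause was not tested.

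No paired analysis was possible for day 14 because the titles of the day 14 libraries carry neither a date nor anything that ties them to a graft. Titles of graft and day 12 libraries carry dates that lie 12 days apart for 3 transfers, though the labels do not say what the dates mark. With these as a replicate block, an alternative chosen after seeing the data, 5753 genes changed from the graft to day 12 against 5773 without it, 5678 of them the same genes in the same direction, and no named gene lost or gained its call. Deviations of graft and day 12 libraries of the same transfer correlated across genes at 0.165, 0.25 and -0.09, so the pairing was not borne out for every transfer. In the shallowest day 14 library 3 reads equal 24.5 normalized reads, so lower levels there are at the limit of counting.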
